A study of Mus musculus with 7 samples.

Results

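Integrins and the cytoplasmic proteins of focal adhesions were examined in the palatal shelves of Adamts9+/-:bt/bt and wild-type mouse embryos. The 43 genes were taken by name and function: 19 integrin subunits and 24 cytoplasmic partners. A probe named for 35 of them was present, each read as 1 distinct signal, out of 18116 distinct signals on the array. Of these, 27 lay above the detection limit used here, a mean of 5.86 log2 units, which is the 40th percentile of all signals, and 8 did not (Itga2, Itga4, Itgb3, Itgb7, Itgb8, Tln1, Tln2 and Lims1). A further 8 (Itga8, Itga10, Ptk2, Parvb, Tns1, Tns3, Flna and Tes) carry no probe under their symbol and were not analysed here.

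The Adamts9+/-:bt/bt embryos (4, all at E13.75) lack 1 copy of Adamts9 and carry the belted allele bt on both copies of Adamts20, and the control embryos (3, at the same age) were wild type. The labels give the strain of every sample as C57BL/6. Both genes encode secreted metalloproteases, the alleles are present in the whole embryo, and the series concerns versican proteolysis while the palate closes. Shelf tissue of each embryo was dissected and read whole on its own Illumina bead array, so fewer cells of a type and less RNA per cell cannot be told apart.

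Integrins are heterodimers of an alpha and a beta subunit that span the cell membrane and bind proteins of the extracellular matrix. Inside the cell, talins and kindlins bind the beta tail and switch the receptor on, the ILK, PINCH and parvin complex and the FAK and SRC kinases assemble behind it, and vinculin, alpha-actinin and zyxin couple the cluster to actin filaments. In embryonic tissue these receptors connect mesenchyme with its fibronectin-rich matrix and epithelium with its basement membrane.

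Values are log2 units of the authors' table, and differences are mutant minus wild type. The 7 arrays share a median of 6.07 log2 units. Over the 10869 detected signals the arrays of a genotype resembled each other most, with Pearson correlations of 0.992 to 0.994 among the mutants, 0.982 to 0.993 among the wild types and 0.947 to 0.977 between genotypes. Wild-type replicate 3 stood apart from wild-type replicates 1 and 2: it lay more than 0.5 log2 units outside their range in 359 detected signals, against 146 for wild-type replicate 2 and 17 for wild-type replicate 1. Markers of palatal mesenchyme all averaged above the limit (11 of 11 with a probe). Among them Osr2, Msx1, Barx1 and Twist1 were called lower in the mutants, so their presence does not show equal tissue. No probe under the symbol Adamts9 was present. The 1 Adamts20 signal was below the limit on every array (5.69 to 5.80 in the mutants, against 5.67 to 5.82 in the wild types), so these values do not check the genotypes. All 35 exact permutation splits of the 7 arrays were used for single genes, and the smallest p they allow is 0.0286.

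The integrin and focal adhesion genes moved in both directions and about as often as other genes. By limma with Benjamini-Hochberg adjustment over all detected signals, 3 of 27 detected members rose (Itgav, Lims2 and Parva), 6 fell (Src, Csk, Itga5, Ilk, Itgb5 and Itga1) and 18 did not pass an adjusted p of 0.05. That is 33.3% of the detected members called, against 36.6% of all detected signals, of which 16.8% rose and 19.8% fell. The median difference was 0.036 for the detected members and -0.0035 for all detected signals. The ranges of the genotypes were separate in 11 members, in 4 of which all mutants lay above and in 7 below, against 42.6% of all detected signals (19.7% above and 22.9% below). The rises were at most 1.25-fold, while Src and Csk fell more than any other member. The count of rises changed when single arrays were left out, and so did the genes behind it. It was 2 without wild-type replicate 1 (Itgav and Vcl), mutant replicate 1 (Lims2 and Itgb4) or mutant replicate 4 (Itgav and Parva). Without mutant replicate 2 it was 1 (Itgav). Without wild-type replicate 2 it was also 1, but this was Itgb4, and Itgav, Lims2 and Parva all lost their calls. The count was 0 without mutant replicate 3 (limma, with 3 rises at an unadjusted p of 0.05). It was 5 without wild-type replicate 3, where Pxn and Actn4 were added. With arrays centred on their medians the median of all signals shifted to -0.14, 1 member rose and 9 fell, and rises made up 17.4% of all calls on the array against 46% in the authors' table. The shift differed between signals: the difference of Csk went from -1.02 to -1.29, while that of the dim Itgav stayed at 0.32. The -0.14 is therefore not the shift of each gene.

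**Figure D1:**
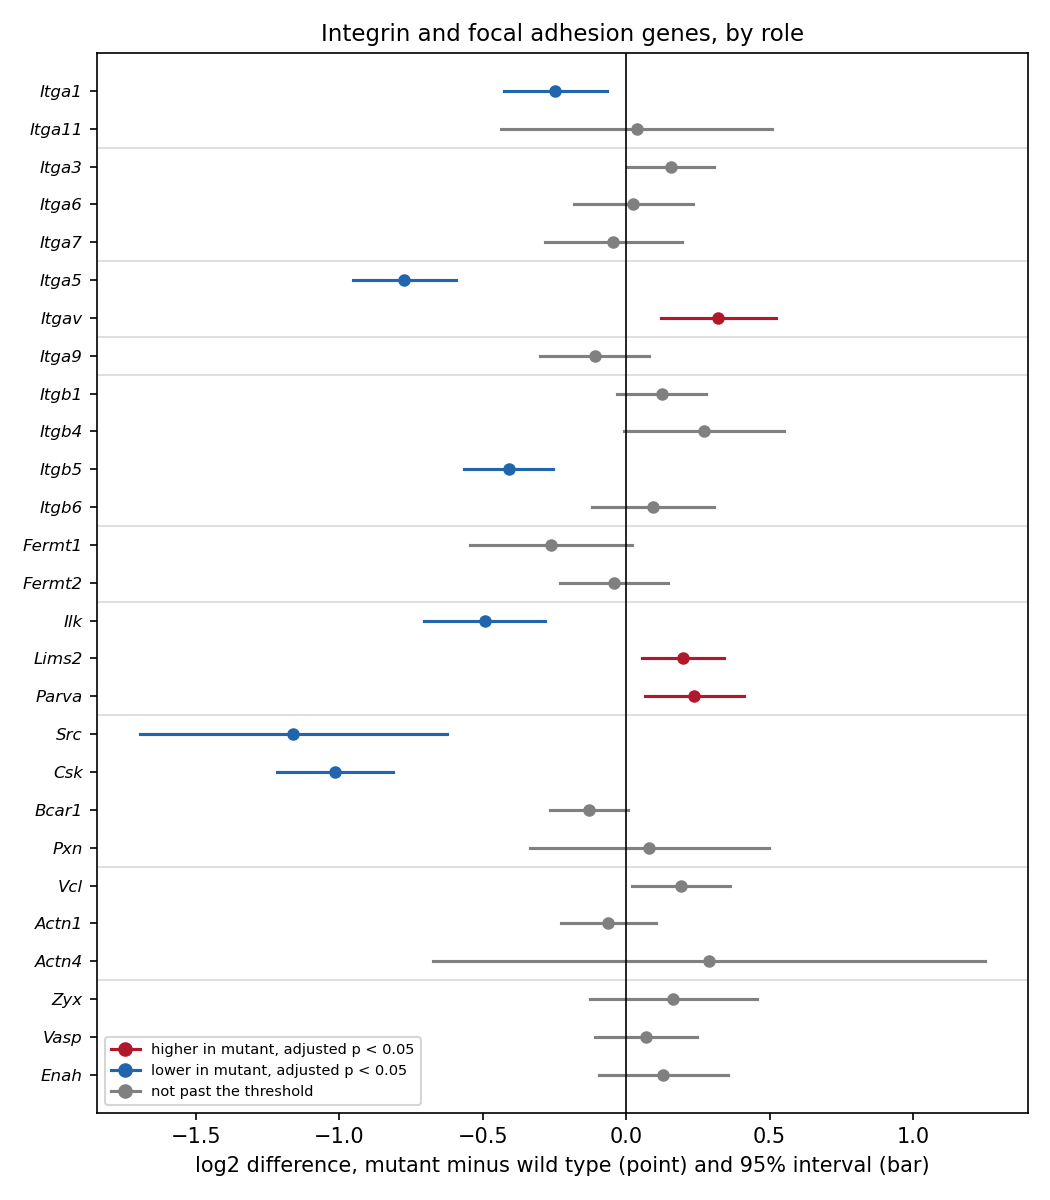
Log2 difference, mutant minus wild type (points), with its 95% interval from limma (bars), for the 27 detected members, grouped by role from alpha subunits at the top to zyxin and Ena/VASP proteins at the bottom. Src and Csk lie farthest to the left at -1.16 and -1.02, Itgav lies farthest to the right of those past the threshold at 0.32 (red marks higher, blue lower), and Actn4 has the widest interval.

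The adhesion kinases Src and Csk showed the largest falls among the members, and the FAK gene Ptk2 was not analysed here. SRC is a tyrosine kinase that phosphorylates FAK, paxillin and p130Cas at adhesions, and CSK is the kinase that holds SRC-family kinases inactive by phosphorylating their tail. Csk read 8.77, 9.11, 8.85 and 8.96 in the mutant arrays, against 10.03, 9.93 and 9.85 in the wild-type arrays. Every mutant lay below every wild type, and each group was tight (8.92 ± 0.15, SD, n = 4, and 9.94 ± 0.09, SD, n = 3). The fall was 2.02-fold (log2 difference -1.02, SE 0.09, 95% interval -1.22 to -0.81, limma adjusted p = 0.000103, exact permutation p = 0.0286). Src read 7.07, 6.97, 6.83 and 7.12 in the mutants, against 8.45, 8.57 and 7.45 in the wild types. The groups did not overlap, but wild-type replicate 3 lay nearer to the mutants than to the other wild types. The fall of Src was 2.23-fold (log2 difference -1.16, SE 0.24, 95% interval -1.70 to -0.62, limma adjusted p = 0.00507). Set against wild-type replicate 3 alone, Src differed by -0.45, and with that array left out by -1.51. A comparison with 1 wild-type array holds no wild-type spread (SD of Src 0.62 in the wild types, 0.13 in the mutants), so no p is given for it.

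Src, Csk and Itga5 had the largest falls among the members and were lower in all 14 alternative analyses, and the windows around their transcription starts are shown. The sequences are from RefSeq (GRCm38.p6), each 250 bases before to 50 bases after a start, 5′ to 3′ on the gene's strand, and capitals mark the GC box GGGCGG or its reverse complement, the classical SP1 motif. Csk has 2 annotated starts.
Itga5 (chr15:103366742-103367041, minus strand): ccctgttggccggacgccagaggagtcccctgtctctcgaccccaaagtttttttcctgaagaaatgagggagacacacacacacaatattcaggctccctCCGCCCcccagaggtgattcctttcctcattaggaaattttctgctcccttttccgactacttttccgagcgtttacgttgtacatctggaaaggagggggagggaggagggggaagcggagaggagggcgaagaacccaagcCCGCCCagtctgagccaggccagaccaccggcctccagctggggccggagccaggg
Src (chr2:157424043-157424342, plus strand): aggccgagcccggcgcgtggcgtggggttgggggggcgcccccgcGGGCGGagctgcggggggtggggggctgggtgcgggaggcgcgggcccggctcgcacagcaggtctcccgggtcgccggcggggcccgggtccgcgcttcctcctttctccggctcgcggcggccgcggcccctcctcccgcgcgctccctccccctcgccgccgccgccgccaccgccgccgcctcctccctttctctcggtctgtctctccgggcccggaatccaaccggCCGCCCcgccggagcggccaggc
Csk, first start (chr9:57653582-57653881, minus strand): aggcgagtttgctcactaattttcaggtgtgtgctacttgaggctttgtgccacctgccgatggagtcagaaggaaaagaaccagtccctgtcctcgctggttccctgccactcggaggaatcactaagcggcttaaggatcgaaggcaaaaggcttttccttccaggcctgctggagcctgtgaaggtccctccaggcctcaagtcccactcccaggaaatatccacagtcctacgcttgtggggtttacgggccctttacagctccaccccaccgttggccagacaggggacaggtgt
Csk, second start (chr9:57645604-57645903, minus strand): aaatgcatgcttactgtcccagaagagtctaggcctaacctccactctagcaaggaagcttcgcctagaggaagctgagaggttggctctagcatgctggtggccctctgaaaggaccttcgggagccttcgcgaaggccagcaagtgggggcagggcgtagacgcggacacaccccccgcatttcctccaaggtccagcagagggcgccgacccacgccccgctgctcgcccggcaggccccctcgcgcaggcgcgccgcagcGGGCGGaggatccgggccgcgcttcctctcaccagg

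These windows differed in their letters. Itga5 and Src each held 2 GC boxes, the first Csk window held 0 and the second 1, and the G and C content was 58.7% for Itga5, 82.3% for Src, and 56% and 66.3% for the Csk windows. A GC box on either strand was found in 21 of 34 windows of the 27 members that have an entry, in 6 of 9 windows of the 7 called members with an entry, and in 35.7% of all 32851 windows in the table. The CCAAT box (CCAAT) lay in 7 of the 34 member windows, the TEAD motif GGAATG in 3 and the AP-1 motif TGANTCA in 4, against 37.4%, 14.7% and 7.81% of all windows. The CCAAT, TEAD and AP-1 letters were in 0 of the 9 windows of the called members. A match is a run of letters and no measured site.

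Among the integrin alpha subunits that bind the RGD motif, Itga5 fell and Itgav rose. Alpha 5 pairs with beta 1 as the main fibronectin receptor, and alpha V pairs with several beta subunits to bind vitronectin, fibronectin and latent TGF-beta. Itga5 read 6.61, 6.63, 6.40 and 6.48 in the mutants, against 7.35, 7.37 and 7.19 in the wild types. All mutants lay well below all wild types. The fall was 1.71-fold (log2 difference -0.77, SE 0.08, 95% interval -0.95 to -0.59, limma adjusted p = 0.000183), and it was -0.66 against wild-type replicate 3 alone. Itgav read 6.31, 6.06, 6.32 and 6.27 in the mutants, against 6.02, 5.77 and 5.96 in the wild types. The groups did not overlap, although mutant replicate 2 and wild-type replicate 1 were close, and all values were dim. The rise was 1.25-fold (log2 difference 0.32, SE 0.09, limma adjusted p = 0.0205, exact permutation p = 0.0571). It did not pass without wild-type replicate 2 (0.25, adjusted p = 0.0765), mutant replicate 1 (0.30, adjusted p = 0.0506) or mutant replicate 3 (0.30, adjusted p = 0.0567).

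Of the beta subunits that partner these alphas, Itgb5 fell and Itgb1 did not pass. Itgb1, the subunit shared by most matrix-binding integrins, read 6.71, 6.75, 6.84 and 6.70 in the mutants, against 6.65, 6.71 and 6.52 in the wild types. The ranges overlapped (log2 difference 0.12, SE 0.07, 95% interval -0.03 to 0.28, limma adjusted p = 0.193). The sign turned with median centring (-0.016), where the median of all signals was -0.14. Itgb5, which pairs with alpha V as a vitronectin receptor, read 10.30, 10.27, 10.37 and 10.46 in the mutants, against 10.77, 10.82 and 10.69 in the wild types. It was lower in every mutant, by 1.33-fold (log2 difference -0.41, SE 0.07, limma adjusted p = 0.00184). The difference was -0.34 against wild-type replicate 3 alone. Within each array of the authors' table the Itgav signal relative to Itgb5 lay 0.63 to 0.86 log2 units above the wild-type mean in the mutants, against -0.21 to 0.11 in the wild types. Itga5 relative to Itgb1 lay at -1.12 to -0.78 in the mutants, against -0.02 to 0.02 in the wild types. These pairs were chosen after their values were seen, and the ratios show unequal change of the signals only, with a size that depends on how the arrays were scaled.

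Collagen receptors were represented by Itga1 and Itga11. Itga1, the alpha 1 collagen-binding subunit, read 5.91, 5.75, 5.90 and 5.75 in the mutants, against 6.13, 6.17 and 5.93 in the wild types. Mutant values lay below all wild types but close to wild-type replicate 3, and the mutant mean of 5.83 was below the detection limit. Itga1 thus passed the filter through the wild types, so no fold is given for its fall (log2 difference -0.25, SE 0.08, limma adjusted p = 0.0389). The call was lost when wild-type replicate 1 (-0.22, adjusted p = 0.127) or 2 (-0.20, adjusted p = 0.135), or mutant replicate 2 (-0.22, adjusted p = 0.0918), 3 (-0.27, adjusted p = 0.0521) or 4 (-0.22, adjusted p = 0.0906), was left out. Itga11, a collagen-binding subunit of mesenchymal cells, varied most among mutants, at 7.51, 7.06, 6.55 and 6.61, against 6.89, 6.80 and 6.997 in the wild types. The mutants thus lay on both sides of the wild types (difference 0.036, SE 0.21, limma adjusted p = 0.915).

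Laminin receptors of epithelium and muscle did not pass. Itga3 pairs with beta 1 and Itga6 with beta 1 or beta 4 in epithelial cells, Itga7 is the laminin receptor of muscle, and Itgb4 anchors hemidesmosomes to keratins. Itga3 read 7.17, 7.32, 7.20 and 7.22 in the mutants, against 6.99, 7.17 and 7.06 in the wild types, a narrow separation (0.16, SE 0.07, limma adjusted p = 0.0992). Itgb4 read 7.97, 8.39, 8.27 and 8.24 in the mutants, against 7.87, 8.19 and 7.78 in the wild types, and the groups overlapped (0.27, SE 0.12, limma adjusted p = 0.115). Leaving out wild-type replicate 2 (0.39, adjusted p = 0.0348) or mutant replicate 1 (0.36, adjusted p = 0.042) brought Itgb4 past the threshold. With median centring the signs of both turned, to -0.030 for Itgb4 (adjusted p = 0.874) and -0.053 for Itga3 (adjusted p = 0.619). Both values lay above the median of all signals in that fit, -0.14, which is not the shift of each signal. Itga6 differed by 0.025, Itga7 by -0.045, Itgb6, the epithelial partner of alpha V, by 0.093, and Itga9, a tenascin and EMILIN1 receptor subunit, by -0.11, with limma adjusted p from 0.345 to 0.864. Epithelial markers read alongside averaged 8.21 to 8.62 log2 units over 11 detected genes in the mutants, against 8.27 to 8.60 in the wild types. Of these markers 2 rose, Cdh1 and Esrp1, and 0 fell by limma, with a median difference of -0.053 over the list. Krt8 had all mutants below all wild types but did not pass (-0.42, limma adjusted p = 0.0675). The part of epithelium in the integrin values was not tested.

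In the ILK, PINCH and parvin complex, which ties beta tails to actin, Ilk fell while Parva and Lims2 rose, Parva with a sign that turned under median centring. Ilk, the pseudokinase at its centre, read 8.79, 9.05, 8.87 and 8.91 in the mutants, against 9.55, 9.44 and 9.21 in the wild types. No mutant reached any wild type. The fall was 1.41-fold (log2 difference -0.49, SE 0.09, 95% interval -0.70 to -0.28, limma adjusted p = 0.00352), and it was smaller against wild-type replicate 3 alone (-0.31). Parva, which encodes the actin-binding alpha-parvin, read 9.72, 9.66, 9.58 and 9.56 in the mutants, against 9.28, 9.37 and 9.53 in the wild types. Its rise was 1.18-fold (log2 difference 0.24, SE 0.08, limma adjusted p = 0.0378). Its sign turned with median centring (-0.048, limma adjusted p = 0.709). In that fit the median of all signals was -0.14, and Parva lay 0.090 above it. That median is not the shift at the level of Parva: Ilk, of similar level, went from -0.49 to -0.79. Lims2, which encodes PINCH2, read 6.40, 6.54, 6.40 and 6.46 in the mutants, against 6.25, 6.20 and 6.31 in the wild types (0.20, SE 0.06, limma adjusted p = 0.0352), and it did not pass with median centring (0.15, adjusted p = 0.112).

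The calls of Parva and Lims2 were lost when single arrays were left out, and that of Ilk was kept in each such fit. Without wild-type replicate 1, Parva differed by 0.18 (adjusted p = 0.146) and Lims2 by 0.20 (adjusted p = 0.096). Without wild-type replicate 2 they differed by 0.23 (adjusted p = 0.101) and 0.17 (adjusted p = 0.12), without mutant replicate 2 by 0.23 (adjusted p = 0.0818) and 0.17 (adjusted p = 0.0839), and without mutant replicate 3 by 0.25 (adjusted p = 0.0602) and 0.22 (adjusted p = 0.0512). Parva also missed the threshold without mutant replicate 1 (0.21, adjusted p = 0.0877), and Lims2 without mutant replicate 4 (0.20, adjusted p = 0.0685). Within each array the Parva signal relative to Ilk lay 0.62 to 0.94 above the wild-type mean in the mutants, against -0.26 to 0.32 in the wild types. This pair was also chosen after its opposite calls were seen, so the ratio restates them. Src relative to Csk, which both fell, overlapped (-0.36 to 0.08 in the mutants, -0.62 to 0.43 in the wild types).

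**Figure D2:**
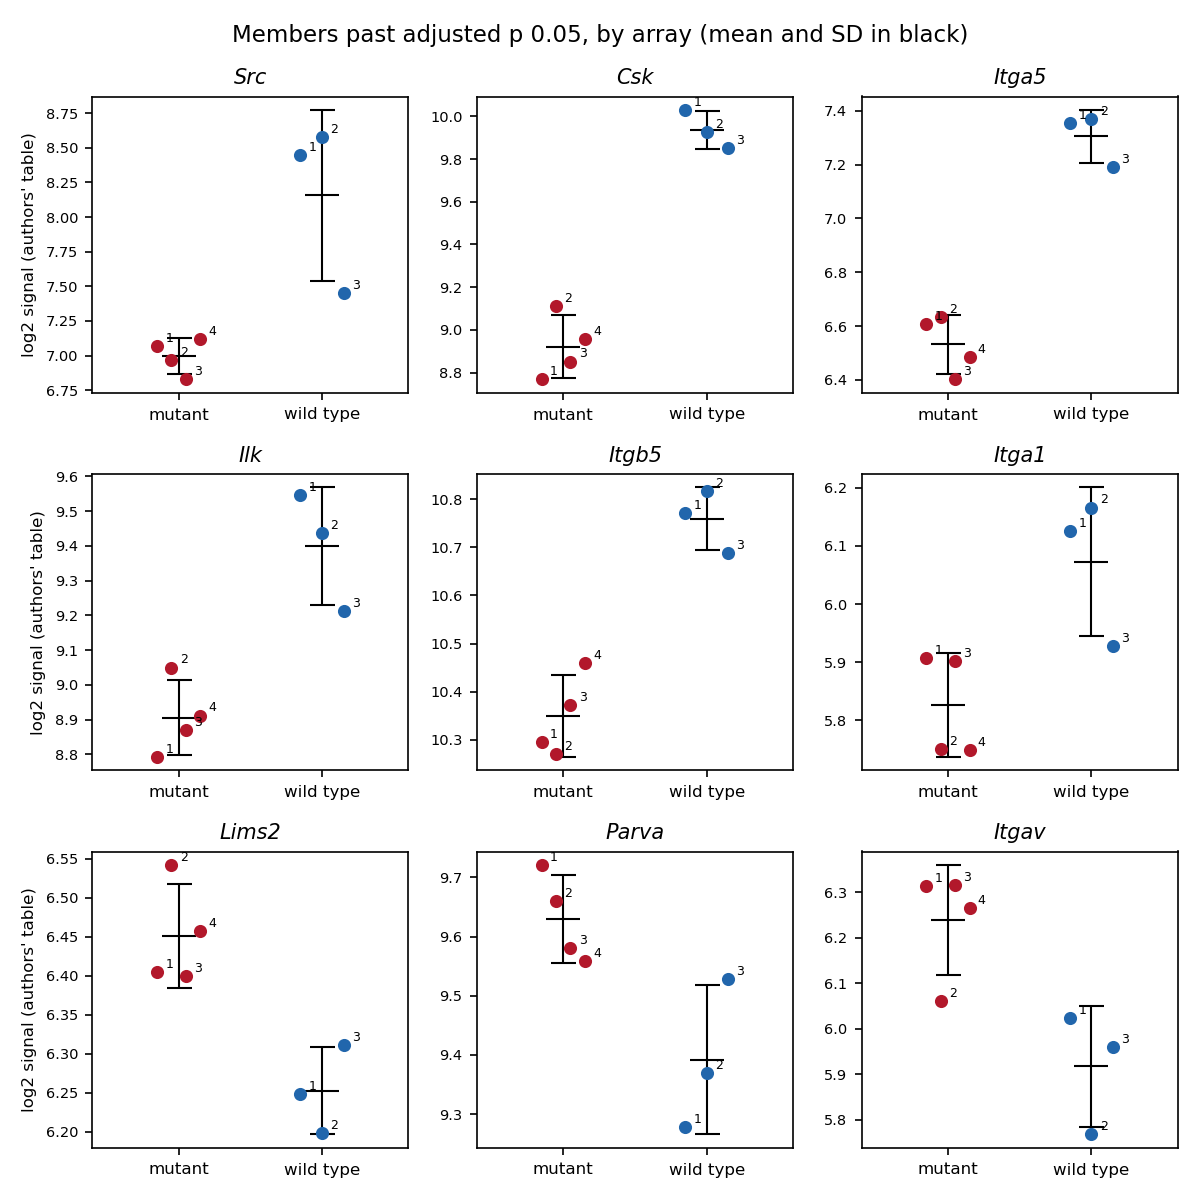
Log2 signal of the 9 members past the threshold in each array, mutant arrays on the left and wild-type arrays on the right of each panel, with replicate numbers beside the points and the mean and SD in black. The groups do not overlap in any panel, and wild-type replicate 3 is the wild type nearest the mutants in every panel but Itgav. The sign for Parva turns to -0.048 with median centring, where the median of all signals is -0.14.

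Of the 3 wild-type arrays, replicate 3 lay nearest the mutant mean in 8 of the 9 called members and in 60.7% of the 3977 signals called across the array. Over all 27 detected members it was nearest in 11, as often as wild-type replicate 1.

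Of the talins and kindlins, the activators that bind beta tails, 0 of 2 detected members passed. Tln1, the talin of most tissues, was not above the limit, at 5.86, 5.84, 5.94 and 5.78 in the mutants, against 5.78, 5.72 and 5.77 in the wild types, so its level cannot be read from this probe. Tln2 was likewise below the limit. Fermt2, the kindlin of mesenchymal cells, read 10.25, 10.19, 10.01 and 9.995 in the mutants, against 10.20, 10.20 and 10.05 in the wild types, with overlapping ranges (-0.042, SE 0.08, 95% interval -0.23 to 0.15, limma adjusted p = 0.738). Fermt1, the kindlin of epithelium, was -0.26 (SE 0.12, limma adjusted p = 0.136), and -0.50 with median centring (adjusted p = 0.0129).

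Vcl, Actn1 and Actn4, which couple adhesions to actin, did not pass, and the differences of Actn4 and the scaffold gene Pxn turned sign with 1 wild-type array. Vinculin, the talin-binding linker encoded by Vcl, read 10.16, 10.08, 10.23 and 10.10 in the mutants, against 10.08, 9.95 and 9.82 in the wild types. The ranges touched (0.19, SE 0.08, 95% interval 0.02 to 0.36, limma adjusted p = 0.0787), and Vcl passed without wild-type replicate 1 (0.26, adjusted p = 0.0433). Vcl turned sign with median centring (-0.049, limma adjusted p = 0.754), where the median of all signals was -0.14. Actn4, a non-muscle alpha-actinin, read 8.50, 8.76, 8.44 and 8.75 in the mutants, against 8.0, 7.38 and 9.60 in the wild types. All 4 mutants therefore lay between wild-type replicate 3 and the other wild types. The Actn4 difference was 0.29 (SE 0.42, limma adjusted p = 0.64) with all arrays, 0.93 without wild-type replicate 3 (adjusted p = 0.00233) and -0.98 against that array alone. Pxn, the adhesion scaffold paxillin, had the same arrangement, at 6.32, 6.40, 6.41 and 6.49 in the mutants, against 6.19, 5.92 and 6.86 in the wild types. The Pxn difference was 0.080 (SE 0.18, limma adjusted p = 0.777) over all arrays, 0.35 when wild-type replicate 3 was left out (adjusted p = 0.0145) and -0.45 against that array alone. No direction is given for either gene.

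**Figure D3:**
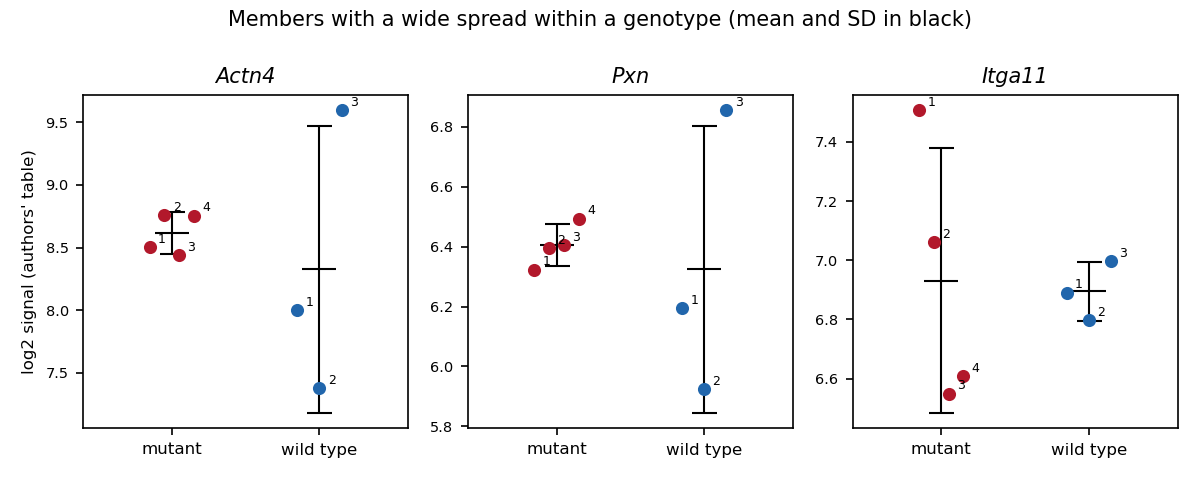
Log2 signal of Actn4, Pxn and Itga11 in each array, mutants left and wild types right, with replicate numbers and the mean and SD in black. The mutant points of Actn4 and Pxn fall between wild-type replicate 3, at 9.60 and 6.86, and wild-type replicates 1 and 2, while Itga11 spreads among the mutants from 6.55 to 7.51.

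The other actin-linked members did not pass. Actn1, the second non-muscle alpha-actinin, differed by -0.062 (SE 0.07, 95% interval -0.23 to 0.10), Zyx, the tension-sensitive LIM protein zyxin, by 0.16 (-0.071 with median centring), and the actin polymerisation factors Vasp and Enah by 0.069 and 0.13. Bcar1, the SRC substrate p130Cas, did not pass although its ranges were separate, at 7.18, 7.24, 7.20 and 7.13 in the mutants, against 7.27, 7.39 and 7.30 in the wild types (difference -0.13, SE 0.06, limma adjusted p = 0.127). Bcar1 and Actn1 passed as lower with median centring (-0.36, adjusted p = 0.00421, and -0.28, adjusted p = 0.0304), where the median of all signals shifted to -0.14.

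Of the 8 members below the limit, 7 read within 0.10 log2 units between genotypes. The exception was Itgb3, the beta 3 subunit of platelets, vessels and bone-resorbing cells, at 5.88, 5.64, 5.75 and 5.72 in the mutants, against 5.98, 6.04 and 5.98 in the wild types. Each mutant lay below each wild type (difference -0.25, exact permutation p = 0.0571), and Itgb3 passed when no filter was applied. Platelet markers averaged 6.15 to 6.40 over 4 detected genes in the mutants, against 6.34 to 6.50 in the wild types. Of these Itga2b, the alpha partner of beta 3 in platelets, fell. The others did not pass and overlapped, with Pf4 at 0.14, Gp9 at -0.14 and Ppbp at -0.098. The part of platelet RNA in the Itgb3 values was not tested.

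Around the receptors, ligands of integrins were the set with the lowest median. This wider list of 109 adhesion genes was chosen for function with earlier results of these data known. Of 25 detected ligand genes 11 fell (44%, against 19.8% of all detected signals), 1 rose and 13 did not pass by limma, with a median of -0.28. Col4a2 and Lamb2, chains of collagen IV and laminin in basement membranes, fell by 2.39-fold (9.66 ± 0.13 in 4 mutants, 10.91 ± 0.22 in 3 wild types, SD) and 1.96-fold. Lamb3, a chain of epithelial laminin-332, fell 2.07-fold, and Svep1, a ligand of alpha 9 beta 1, fell 1.84-fold. Thbs1, the matricellular protein thrombospondin 1, was the 1 ligand called higher, at 6.34 ± 0.09 in 4 mutants against 5.57 ± 0.04 in 3 wild types (SD). All its wild-type values were below the limit, so it passed the filter through the mutants and no size is given.

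Of 11 membrane partners of integrins, 2 were higher (18.2%, against 16.8% of all detected signals) and 2 lower (18.2%, against 19.8%), shares near those of the whole array. Cav1, the caveolar coat protein, rose 1.44-fold and the tetraspanin Cd151 1.15-fold. With median centring, where the median of all signals was -0.14, Cav1 no longer passed (0.23) and Cd151 turned sign (-0.11). Cd151 also lost its call when any array but mutant replicate 3 was left out (0.16 to 0.21). Ddr1 and Ddr2, collagen receptors that are tyrosine kinases and not integrins, fell 1.90-fold and 1.70-fold (limma adjusted p = 0.00066 and 0.00077).

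Other focal adhesion adaptors gave 5 of 20 features higher (25%, against 16.8% of all detected signals) and 6 lower (30%, against 19.8%). Palld, the actin crosslinker palladin, fell the most of the whole list (2.57-fold, 8.54 ± 0.18 in 4 mutants, 9.90 ± 0.21 in 3 wild types, SD, limma adjusted p = 0.000112). The zyxin relative Trip6 fell 1.66-fold, and migfilin (Fblim1), which binds filamin and kindlin, fell 1.51-fold. The vinexin gene Sorbs3 fell 1.20-fold. Cttn, the branched-actin regulator cortactin, rose 1.41-fold, a feature of the alpha-actinin partner Pdlim5 rose by 0.19, and Pdlim1 rose by 0.37 with overlapping groups (limma adjusted p = 0.0258). Another Pdlim5 feature was called higher with all wild-type values below the limit, so it passed the filter through the mutants and no size is given. Pdlim1 lost its call with median centring (0.11) and when wild-type replicate 2 or 3 or mutant replicate 2, 3 or 4 was left out (0.32 to 0.37).

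Signalling genes downstream of integrins gave 9 of 24 features lower (37.5%, against 19.8% of all detected signals) and 2 higher (8.33%, against 16.8%). The largest fall was in Rapgef1, an exchange factor that CRK brings to RAP1 (2.23-fold, 6.98 ± 0.06 in 4 mutants, 8.13 ± 0.10 in 3 wild types, SD, limma adjusted p = 3.71e-05). Dock1, a RAC activator, fell 1.54-fold, the RhoGAP gene Arhgap35 1.43-fold and the ARF GTPase activator Asap1 1.46-fold. Rap1b, the small GTPase that activates integrins through talin, rose 1.25-fold (0.067 and no call with median centring), and Ptpn12, a phosphatase of p130Cas, rose 1.32-fold.

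**Figure D4:**
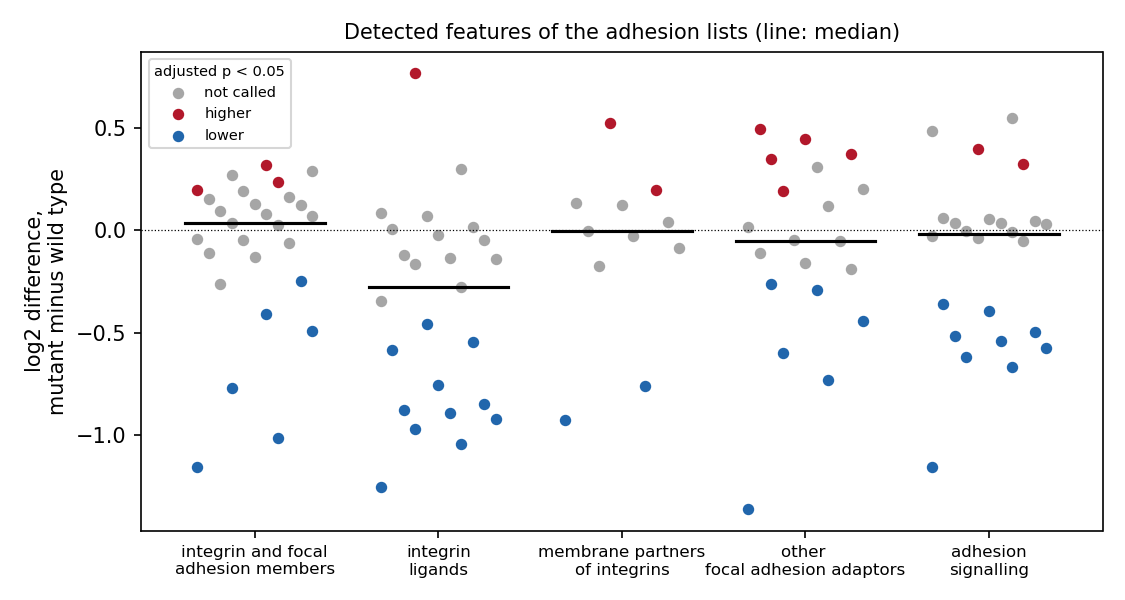
Log2 difference, mutant minus wild type, of each detected feature in the integrin and focal adhesion members and in the 4 parts of the wider adhesion list, coloured by the limma call, with the median as a black line. The ligand median lies at -0.28 and the other medians between -0.050 and 0.036.

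Cell type markers moved alongside these genes. Endothelial markers averaged 7.51 to 7.76 over 9 detected genes in the mutants, against 7.96 to 8.16 in the wild types, with 5 lower (Pecam1, Cdh5, Tek, Eng and Tie1) and 0 higher by limma. The others did not pass: Esam differed by -0.25, Emcn by 0.011, Kdr by 0.027 and Plvap by 0.20, Plvap with all mutants above all wild types. Neuron markers averaged 8.82 to 9.24 over 10 detected genes in the mutants, against 6.71 to 7.62 in the wild types, with 9 higher. Palatal mesenchyme markers averaged 8.84 to 9.14 over 11 genes in the mutants, against 9.32 to 9.52 in the wild types, with 5 lower (Msx1, Twist1, Lhx8, Barx1 and Osr2). Skeletal muscle markers averaged 8.78 to 9.43 over 9 genes in the mutants, against 7.70 to 8.94 in the wild types, with 1 higher (Des). The low value was that of wild-type replicate 2 alone, with wild-type replicates 1 and 3 at 8.85 and 8.94. That array was also the lowest for neuron markers (6.71, against 7.62 and 7.58). Leukocyte markers averaged 7.39 to 7.52 over 5 detected genes in the mutants, against 7.40 to 7.4995 in the wild types, with 1 lower (Cx3cr1) and Ptprc below the limit. The others did not pass: Laptm5 differed by 0.26, Aif1 by 0.13, Tyrobp by 0.037 and Mrc1 by -0.11, Aif1 with all mutants above all wild types. Of 6 detected cartilage and bone markers Ibsp rose and Col2a1 fell. Of 5 smooth muscle and pericyte signals only Myh11 was called, as lower. Its mutant mean of 5.79 was below the limit, so it passed the filter through the wild types. The others did not pass (Acta2 signals 0.32 and 1.11, Rgs5 0.13, Cspg4 -0.020). Of the glial markers Fabp7 did not pass and Foxd3 was below the limit. The part of these cell types in the falls of Src, Csk, Itga5, Ilk and Itgb5 and in the ligand falls was not tested.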

How the data were processed

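Total RNA of 7 palatal shelf samples was labelled with biotin by the Illumina TotalPrep kit, per the labels' protocols. The authors deposited 1 file of linear probe intensity per array, with no scaling between arrays as the values show, and a log2 table of the whole series. Within each array the deposited log2 values keep the rank order of the intensity (Spearman 1), and all columns share a median of 6.07 and a range of 5.16 to 14.69. The table is therefore scaled between arrays and not centred by gene. Its method and the scanner software are not stated: not given in the sources used here. No detection p was used.

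The 25695 probe IDs were reduced to 18116 distinct rows, since several probe IDs of a gene often repeat 1 value. In the platform annotation 1 gene symbol is given for 23976 probe IDs, several for 0 and no symbol for 1719. Through their gene IDs, 23960 were found in the RefSeq gene table (GRCm38.p6), and 0 symbols changed. Genotypes were compared by limma 3.58.1 (lmFit and eBayes, two-sided, R 4.3.3) on the authors' log2 table over the 10869 rows whose mean exceeded the 40th percentile, with adjustment over all of them. The number of arrays limits the precision, and the samples are separate embryos per the design text. The fit was tested on simulated data.

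Alternatives were log2 intensity after normexp correction (offset 50) and quantile scaling, median centring of log2 intensity, no filter, a limit at the 60th percentile, each array left out, the mutants against wild-type replicate 3 alone, the replicate number as a block and a trended robust variance prior. Values in every array are given for members past the threshold and for Itgb1, Itga5, Itgav, Tln1 and Vcl (Ptk2 has no probe under its symbol). They are also given for further members chosen after their values were seen. From each part of the wider list up to 4 genes past the threshold in each direction were named, by smallest p. The members, lists and alternatives were chosen with earlier results of these data known.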

Additional observations from a re-analysis of the deposited data

How the results depend on the processing

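In each of the 14 alternatives Src, Csk and Itga5 read lower in the mutants, with log2 differences of -1.51 to -0.45, -1.29 to -0.93 and -0.97 to -0.66. The normexp and trended fits kept all 9 member calls. With median centring 826 signals rose and 3931 fell across the array, and against wild-type replicate 3 alone 759 rose and 1002 fell, with the lone array assumed to vary like the mutants. Members higher were 1 with median centring, 1 with the limit at the 60th percentile (18 members tested) and 0 to 5 when single arrays were left out. In the wider adhesion list 4 rose with median centring, 6 with the 60th percentile and 6 to 9 when single arrays were left out. Counts of falls in both lists stayed within 1.5 times the count from all arrays in the alternatives with more than 1 wild-type array. With median centring Fermt1, Bcar1 and Actn1 joined the member falls. Against wild-type replicate 3 alone no count of list falls is given, since Pxn and Actn4, which have no given direction, read lower there. Ilk and Itgb5 also read lower there, by less than over all arrays.

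With median centring signs turned for Parva (-0.048) and Cd151 (-0.11), which had passed as higher, and for 7 members that had not passed: Itga11 (-0.13), Itga3 (-0.053), Itga6 (-0.082), Itgb1 (-0.016), Itgb4 (-0.030), Vcl (-0.049) and Zyx (-0.071). Each of these values lay above the median of all signals in that fit, -0.14. The shift differed between signals, so a place above that median does not show how a gene stood among genes of its level. Pxn and Actn4 turned against wild-type replicate 3 alone (-0.45 and -0.98) and without wild-type replicate 2 (-0.12 and -0.18). Itga6, Itga7, Itga11, Fermt2 and Vasp, which did not pass in any alternative, also turned in at least 1 other; the cause was not tested. Deviations of same-numbered embryos correlated at -0.20, -0.16 and 0.06. The labels give only replicate numbers, and correlations from so few arrays cannot show whether the samples were paired. With the replicate block, over replicates 1 to 3, 1 member and 6 wider-list features rose, and 5 members and 25 wider-list features fell. Signals near the detection limit, such as Itga1 and Itgav, limit what can be read of their size.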
